A study of Homo sapiens with 3 samples.

Results

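Long intergenic noncoding RNAs (lincRNAs) are transcripts, often spliced and polyadenylated like messenger RNAs, that lie between or beside coding genes and hold no long reading frame. Some act as RNAs in the nucleus or the cytoplasm, some are the host transcripts from which small nucleolar RNAs (snoRNAs) or microRNAs (miRNAs) are cut, and some are known mainly as transcripts that start beside a coding gene. In prostate cancer a few lincRNAs are known as markers of the disease, whereas others, such as MALAT1, NEAT1 and NORAD, are made in most human cells. Here 88 lincRNA genes were described in DU145, an established cell line from a human prostate carcinoma whose growth does not depend on androgen. They were chosen by their read counts: a gene annotated as lincRNA was a member when its counts summed over the 3 libraries reached 300 and it did not lie on chromosome X or Y. The sum of counts is therefore a description and no result. Of 7629 lincRNA genes listed, 2627 had at least 1 count and 1202 had at least 10. Another 4 reached 300 counts on chromosome X or Y and were left out. The members just inside the limit were AF117829.1 with 303 counts and LINC00997 with 301, and the genes just outside were SRP14-AS1 with 298 and LINC00265 with 297.

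RNA-seq was done on 3 libraries: 1 control and 2 that are labelled PD-L1 knockdown 1 and 2. All came from DU145 cells. By the study's methods these were stable lines made with lentivirus and selected with puromycin. The control carried the empty pLKO.1 vector and the others a PD-L1 hairpin, named sh1 and sh2. The methods list 1 hairpin sequence, so whether the hairpins differ is not given. The libraries were made from poly(A) RNA. The control has no replicate, and nothing in the labels says that separate cultures were used. The comparison asks whether the lincRNAs of these cells differ when PD-L1 is targeted. CD274, which encodes PD-L1, had a count of 204 in the control, of 213 under the label knockdown 1 and of 224 under the label knockdown 2. Its log2 fold change was 0.05 (adjusted p = 0.947), so the labels are not borne out by the targeted transcript. The study reports that its stable lines, DU145 included, were checked for PD-L1 protein by western blot. Protein is not measured by these counts. Every direction below is between libraries as labelled. The series text also names another cell line, of thyroid origin, and the control's column of counts carries the name RBM45. Totals were 14733088, 14738298 and 15786457 counts. The luminal prostate markers KLK3, KLK2 and TMPRSS2 were at 0 in every library, while the summed level of 5 epithelial markers was 2179 to 2406 CPM (counts scaled to a common library total). The thyroid markers summed to 126 to 167 CPM, nearly all of it NKX2-1, and fibroblast and leukocyte markers to at most 9.69 and 0.679 CPM. In bulk RNA, fewer cells with a transcript and less of it in each cell cannot be told apart.

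The members took a small and similar share of each library. They held 40838 of the control's counts (0.277%), 37864 of those in the library labelled knockdown 1 (0.257%) and 40464 of those in the library labelled knockdown 2 (0.256%). These were 65.0%, 64.6% and 63.8% of all lincRNA counts, so fewer than 100 genes carried most of what was counted on lincRNAs. The distribution was steep within the members too. NORAD, MALAT1 and NEAT1 together held 35.3%, 33.5% and 34.1% of what the members had in the control and in the libraries labelled knockdown 1 and 2, and the 5 most counted members held 46.7% over all libraries. The sum of counts ran from 301 to 17233, with a median of 538.

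Levels between genes were compared per length, as deposited FPKM (counts scaled by listed gene length and by library total). The mean FPKM of the members ran from 0.732 to 71.2 with a median of 4.82. It was above 10 for 20 members and under 1 for 4. NORAD stood highest, at 78.4 in the control and at 71.8 and 63.5 in the libraries labelled knockdown 1 and 2. No other member reached 40 in any library. SFTA1P, a noncoding relic of a surfactant gene, had an FPKM of 32.6, 35.3 and 33.3, AL161431.1 had 35.1, 29.7 and 30.9, and MALAT1 had 36.2, 27.2 and 31.3. The ranges of these 3 overlapped, so their order is not set by these libraries. SNHG19 followed with 18.9, 27.1 and 22.9, LINC00707 with 18.3, 16.2 and 15.02, and AP001505.1 with 9.88, 20.004 and 19.6. SNHG19 and AP001505.1 are short genes, of 342 and 443 bases, so their high FPKM rest on few reads. The others among the 10 highest were CYP4F26P, a cytochrome P450 pseudogene, LINC00857 and AC245041.1, with mean FPKM of 15.99, 15.7 and 14.2. NEAT1, which came behind only NORAD and MALAT1 by counts, had a level of only 10.2 to 11.3 FPKM because its listed length, 22767 bases, is the greatest among the members.

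**Figure D1:**
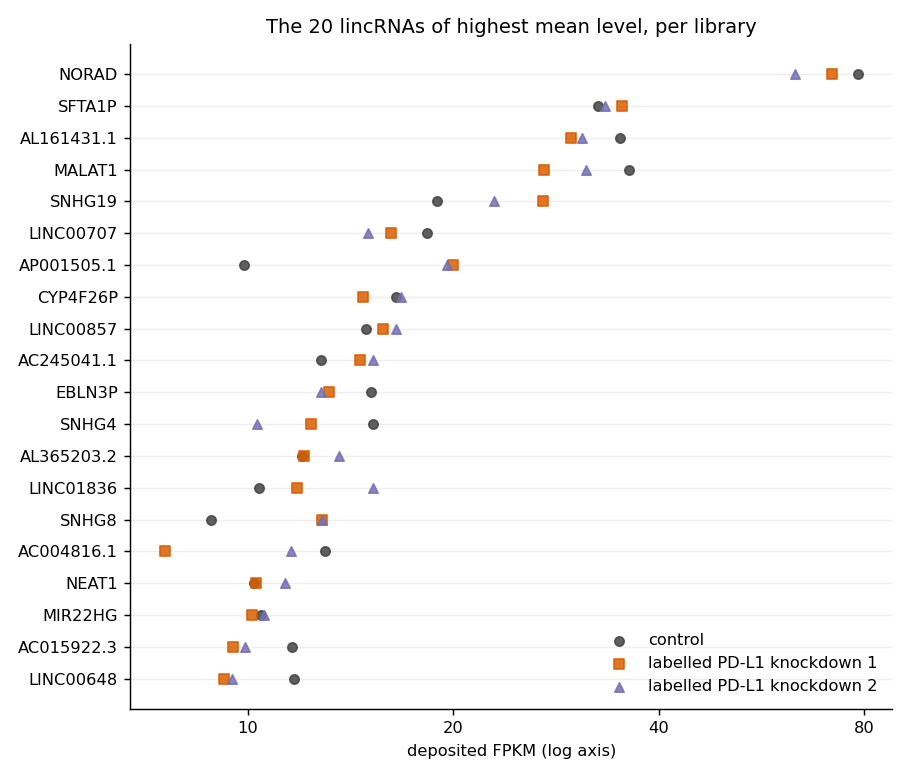
Deposited FPKM (log axis) of the 20 members with the highest mean, 1 row per gene and 1 point per library. NORAD stands apart at 63.5 to 78.4, and the control lies left of both other libraries for AP001505.1 and right of both for NORAD and MALAT1.

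None of the 88 members passed either threshold between the knockdown-labelled libraries and the control. With edgeR's quasi-likelihood test and Benjamini-Hochberg adjustment over 19849 tested genes, 0 members had an adjusted p under 0.05, against 0.353% of all tested genes (70 genes). At an unadjusted p under 0.05 together with more than a 2-fold change, 0 members were called, against 2.48% of all tested genes. Of those 492 genes, 482 had fewer than 300 counts in all, and among genes with at least 300 counts off chromosomes X and Y the share was 0.095%. AP001505.1, with the largest log2 fold change of the members (0.996), missed the 2-fold limit narrowly. At an unadjusted p under 0.05 alone, 14 members stood out (15.9%), 6 higher and 8 lower, beside 15.7% of the 10522 genes with at least 300 counts off chromosomes X and Y. DESeq2 called 0 members at the adjusted p, against 0.0302% of all tested genes, and 3 at an unadjusted p under 0.05, against 3.91% of the genes with at least 300 counts off chromosomes X and Y. At an unadjusted p the share of members was thus near the background with edgeR.

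The fold changes were small and lay on both sides of 0. The log2 fold change ran from -0.53 to 1.00 with a median of -0.03, and 39 members were above 0 and 49 below. The median was 0.00 over all tested genes, 0.00 over 10017 protein-coding genes and -0.07 over 96 antisense genes chosen by the same limit of counts. In 81 members the log2 fold change was within 0.5 of 0. The standard error ran from 0.11 to 0.27, and the 95% interval of the log2 fold change stayed within 2-fold in either direction for 84 of 88 members. The exceptions were AP001505.1, PAXIP1-AS1, EPB41L4A-AS1 and LINC00294. This interval uses a spread pooled over genes, and the control has no replicate. It therefore does not limit how far the conditions can differ.

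**Figure D2:**
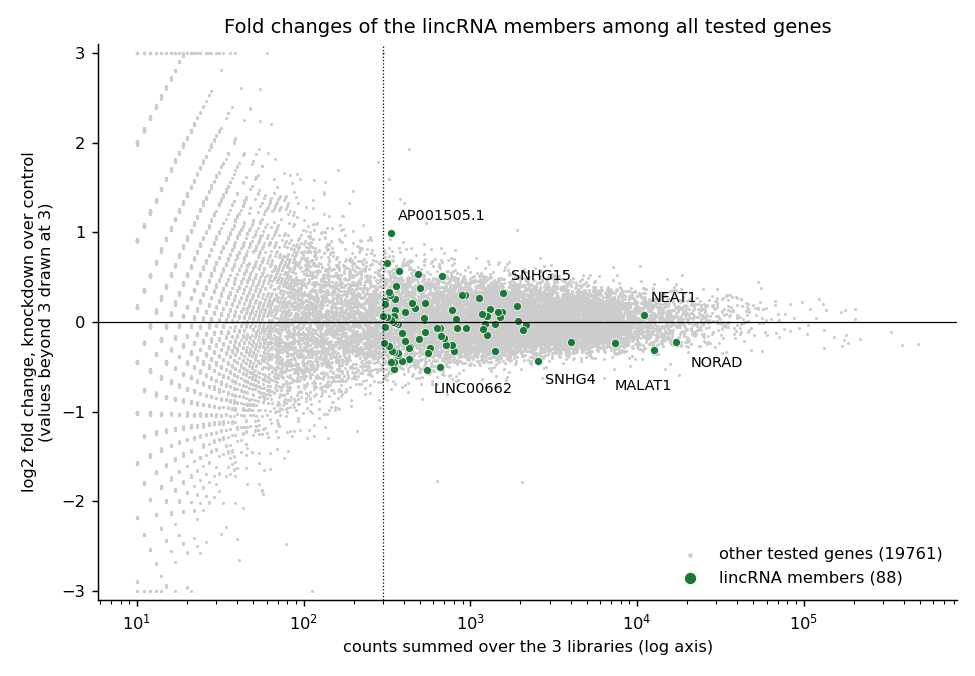
Log2 fold change of the knockdown-labelled libraries over control against the counts summed over the 3 libraries (log axis), for 88 lincRNA members (green) and the other tested genes (grey); the dotted line marks 300 counts. The members lie between -0.53 and 1.00, with AP001505.1 the highest. Of genes with at least 300 counts off chromosomes X and Y, 0.095% passed 2-fold at an unadjusted p under 0.05 (edgeR).

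Each knockdown-labelled library was also set against the control as a ratio of CPM with an exact 95% counting interval, which covers counting error only and compares libraries, not conditions. In 7 members (7.95%) the interval lay above 1 in both libraries, against 16.4% of genes with at least 300 counts off chromosomes X and Y. In 13 members (14.8%) it lay below 1 in both, against 14.4% of those genes. The members had a median of 179 counts per library and protein-coding genes of that depth class 671, and more counts give narrower intervals, so these shares are not at equal depth. Between the libraries labelled knockdown 2 and knockdown 1, the interval left 1 in 18 members (20.5%), against 37.9% of the genes of that class. The lower members were NORAD, MALAT1, AL161431.1, LINC00707, EBLN3P, SNHG4, LINC00648, AP003486.1, AC060780.1, LINC00662, AC048341.1, LINC00294 and LINC01515, which include 5 of the 6 most counted. The higher ones were LINC00665, SNHG15, AC102953.2, SNHG8, EPB41L4A-AS1, PAXIP1-AS1 and AP001505.1.

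AP001505.1 had the largest log2 fold change of the members. It is a single-exon gene on the plus strand of chromosome 21 from 44978832 to 44979274 (GRCh38), with no known role given in the annotation. The control held 65 counts of it, the library labelled knockdown 1 held 131 and the library labelled knockdown 2 held 137. Both of the latter lay near 2 times the control, with ratios of 2.01 (1.49 to 2.76) and 1.97 (1.45 to 2.68). The log2 fold change was 0.996 with a standard error of 0.27, just under the limit of 1 that the 2-fold rule sets. Its adjusted p of 0.0660 was the lowest of any member and did not pass. The member nearest to it, LINC01547, lies 38919 bases away and had 262, 241 and 316 counts, with a log2 fold change of 0.04. Its control value lay between those of the other libraries, unlike that of AP001505.1.

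The next highest members were also of low count. PAXIP1-AS1, which starts beside the DNA damage adaptor gene PAXIP1, had 74, 121 and 120 counts (log2 fold change 0.66, standard error 0.27, adjusted p = 0.308). EPB41L4A-AS1 had 92, 139 and 144 counts and SNHG8 had 121, 175 and 187, both of them snoRNA hosts described below. For AC102953.2 the counts were 171, 227 and 277, with a log2 fold change of 0.51 and an adjusted p of 0.286. In all 4 the control was the lowest library, and none passed.

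At the other end, the counts of LINC00662 were 226 in the control and 162 and 160 in the libraries labelled knockdown 1 and 2. Its log2 fold change was -0.53 with a standard error of 0.21 and an adjusted p of 0.263. LINC00294 had 144, 104 and 102 counts (-0.53, adjusted p = 0.371) and AP003486.1 had 269, 209 and 184 (-0.50, adjusted p = 0.271). The control was the highest library in these 3. LINC00294, a single exon, lies within TCP11L1 on the same strand, and its counts cannot be told apart from reads of that gene. LINC01515 had 133, 94 and 108 counts (-0.44). AC004816.1 had 138, 80 and 131 counts, so that its log2 fold change of -0.44 rested on the library labelled knockdown 1. Between the knockdown-labelled libraries AC004816.1 differed, with a ratio of knockdown 2 to knockdown 1 of 1.53 (1.15 to 2.05).

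The 2 knockdown-labelled libraries were not interchangeable for every member. Of the 18 members in which their counting interval left 1, the library labelled knockdown 2 was the higher in 9. The following were named after their values were seen. AC090114.2 had 127 counts in the control, 77 with the label knockdown 1 and 134 with the label knockdown 2, and the ratio of the latter to the former was 1.62 (1.22 to 2.18). LINC00997, at the limit of counts, had 95, 80 and 126 and a ratio of 1.47 (1.10 to 1.97). The control lay between the other libraries for LINC00997 and near the higher of them for AC090114.2. In the other direction, AL139220.2 had 112, 132 and 98 counts and a ratio of 0.693 (0.528 to 0.907), and TRAM2-AS1 had 169, 201 and 157 and a ratio of 0.729 (0.588 to 0.903). CRNDE, described below, had a ratio of 0.709 (0.540 to 0.929). In LINC00997, AL139220.2 and TRAM2-AS1 the knockdown-labelled libraries lay on opposite sides of the control, and the log2 fold changes over both were 0.06, -0.0032 and 0.04.

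MALAT1 and NEAT1 were examined as the RNAs of nuclear bodies. MALAT1 gathers in nuclear speckles, where splicing factors are stored, and NEAT1 is the scaffold around which paraspeckles form. Their genes are neighbours on the plus strand of chromosome 11, NEAT1 from 65422774 to 65445540 and MALAT1 from 65497688 to 65506516, with 52148 bases between them. The 3′ end of MALAT1 and that of the long NEAT1 form are not made by polyadenylation. Each is cut by the enzyme that also trims tRNA, and a genomically encoded A-rich stretch folds into a triple helix with U-rich stretches upstream and shields the end. These stretches bear on libraries made from poly(A) RNA, so they are shown from the reference transcripts (GENCODE, GRCh38), with capitals for the letters searched, TTTTCTTTT or AAAAAGCA.
MALAT1 U-rich, chr11:65506020-65506049, plus strand: tcatgaaggtTTTTCTTTTcctgagaaaac
MALAT1 A-rich, chr11:65506096-65506125, plus strand: ttaaaaaaaaAAAAAGCAaaagatgctggt
NEAT1 A-rich, chr11:65445511-65445540, plus strand: ctgtgaaagagtgagcaggAAAAAGCAaaa
The letters AAAAAGCA occurred 3 times in each transcript, and a single site of each is shown. In MALAT1 the letters searched began at base 8269 for the U-rich stretch and at base 8345 for the A-rich one shown. More bases of A directly precede the latter. The transcript is annotated to run to base 8708. In NEAT1 the A-rich stretch shown began 11 bases from the annotated 3′ end. Uninterrupted runs of A inside the transcripts, where oligo(dT) can also bind, reached 13 bases in MALAT1 and 22 in NEAT1, beside a median of 7 over the members. In MALAT1 the A-rich stretch shown above itself holds a run of 13. A run of at least 15 was present in 9 members and in 8.54% of all tested genes. How far either RNA was captured through such runs was not tested.

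The counts of MALAT1 were 4747 in the control, 3545 under the label knockdown 1 and 4372 under the label knockdown 2. Both lay below the control, with ratios of 0.747 (0.715 to 0.780) and 0.860 (0.825 to 0.896), but they also differed from each other, with a ratio of knockdown 2 to knockdown 1 of 1.15 (1.10 to 1.204). The log2 fold change was -0.31 with a standard error of 0.11, and the adjusted p was 0.217. With the trends with gene length and GC content removed the log2 fold change was -0.14. NEAT1 had 3454, 3465 and 4078 counts, so only the library labelled knockdown 2 stood off from the control. Its log2 fold change was 0.08 with an adjusted p of 0.844. In both genes the library labelled knockdown 2 held more than the library labelled knockdown 1. Of 10 proteins of speckles and paraspeckles, 4 were above 0 and 6 below, and none passed.

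NORAD keeps chromosomes stable by holding the Pumilio proteins, which otherwise bind and destabilize messenger RNAs, on repeated copies of their recognition motif. The motif was searched as TGTANATA on the transcript's own strand in the longest annotated transcript of each gene. NORAD, a single exon of 5339 bases on the minus strand of chromosome 20 from 36045622 to 36050960, held 15 copies, or 2.81 per kilobase. HCG11, a single exon of 5696 bases on the plus strand of chromosome 6 from 26521709 to 26527404, held 16, also 2.81 per kilobase. HCG11 was picked out after its motif count was seen. The next members were NEAT1 with 6 and AC048341.1 with 3. At least 1 copy was present in 20 members (22.7%) and in 26.3% of the tested genes with a reference transcript. Among 16682 tested genes with transcripts of at least 1 kilobase, only 4, NORAD included, had the density of NORAD or more, and HCG11 came next. One of them, OVCH1-AS1, held 16 copies in 5529 bases.

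NORAD and HCG11 share sequence, and some of the motifs sit in matching surroundings. The first and the last copy of each are shown, in windows of 30 bases with the motif in capitals (GENCODE transcripts, GRCh38).
NORAD, first copy, chr20:36050182-36050211, minus strand: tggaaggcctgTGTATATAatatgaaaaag
HCG11, first copy, chr6:26522457-26522486, plus strand: cggaaggcctgTGTATATAatatgaaaaag
NORAD, last copy, chr20:36046344-36046373, minus strand: attagcctattTGTAAATAcctttgttata
HCG11, last copy, chr6:26526606-26526635, plus strand: attagccaattTGTAAATAcctttttataa
The first copies start at base 761 of NORAD and base 760 of HCG11, and the last at bases 4599 and 4909. The form TGTATATA made up 10 of the copies in NORAD and 10 of those in HCG11, and TGTAAATA 4 in each. Of the 31-base words of NORAD, 56.4% were also in transcripts of other genes, 38.0% in OVCH1-AS1. For HCG11 the figures were 24.1% in any other gene and 11.6% in NORAD. How reads that match several genes were counted is not given in the sources used here, so the counts of both are uncertain to that degree.

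**Figure D3:**
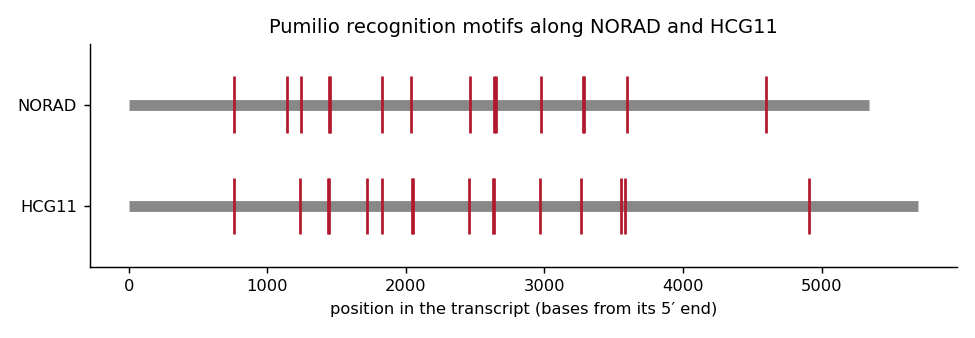
Positions of the Pumilio recognition motif (red) along the NORAD and HCG11 transcripts (grey), in bases from the 5′ end. NORAD carries 15 copies and HCG11 16, all but the last of each between base 760 and base 3593.

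Despite the shared motifs, their levels were far apart. The control held 6213 counts of NORAD, the library labelled knockdown 1 held 5667 and the library labelled knockdown 2 held 5353, whereas those of HCG11 were 631, 607 and 706. Both knockdown-labelled libraries lay below the control for NORAD, with ratios of 0.912 (0.879 to 0.945) and 0.804 (0.775 to 0.834), and on either side of it for HCG11. The log2 fold change was -0.22 for NORAD (adjusted p = 0.426) and 0.01 for HCG11 (adjusted p = 0.990), with standard errors of 0.11 and 0.15. For NORAD the log2 fold change was -0.12 with the length and GC trends removed and -0.13 without the library labelled knockdown 2.

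A snoRNA gene lies on the own strand of 6 members, which are SNHG4, SNHG15, SNHG8, SNHG19, EPB41L4A-AS1 and LINC02001. snoRNAs guide the chemical modification of ribosomal and other RNAs and are released from introns of their hosts. SNORA74A and SNORA74D lie in SNHG4, SNORA9 in SNHG15, SNORA24 in SNHG8 and SNORA13 in EPB41L4A-AS1, all of the H/ACA class that guides pseudouridine formation. SNORD60 lies in SNHG19 and SNORD7 in LINC02001, of the C/D class that guides ribose methylation. Many well-known hosts, such as GAS5 and SNHG1, carry another biotype in this annotation and are therefore not members.

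Many snoRNA hosts begin with a C and a run of pyrimidines, the feature called a TOP start that ties a transcript to the translation of ribosomal protein genes. The starts of the 4 hosts with an entry are shown from RefSeq (GRCh38.p14), from 20 bases before the annotated start to 30 after it, with the pyrimidine run from a C at the start in capitals.
SNHG4, chr5:139274081-139274130, plus strand: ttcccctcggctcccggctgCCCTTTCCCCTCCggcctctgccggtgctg
SNHG19, chr16:2155329-2155378, minus strand: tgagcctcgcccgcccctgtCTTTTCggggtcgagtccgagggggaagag
SNHG8, chr4:118278742-118278791, plus strand: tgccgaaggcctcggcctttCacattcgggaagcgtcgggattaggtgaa
EPB41L4A-AS1, chr5:112160506-112160555, plus strand: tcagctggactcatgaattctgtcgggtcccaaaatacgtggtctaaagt
The run was 13 bases in SNHG4, 6 in SNHG19, 1 in SNHG8 and 0 in EPB41L4A-AS1. A run of at least 5 was present at 4.07% of 35116 RefSeq starts and at 5 of the 37 members with an entry. Since 1 base decides whether a run is found, the annotated start bears on each of these lengths.

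SNHG4 stood apart from the other hosts. Its counts were 1013 in the control, 817 under the label knockdown 1 and 729 under the label knockdown 2, so that both lay below the control and apart from each other. Its log2 fold change was -0.43 with a standard error of 0.14 and an adjusted p of 0.142. SNHG4 lies inside the coding gene MATR3 on the same strand, shares 13.0% of its words with it, and its counts cannot be told apart from reads of MATR3 where they overlap.

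The other 5 hosts had positive log2 fold changes, and none passed. SNHG15 had 441, 587 and 553 counts (log2 fold change 0.33, standard error 0.16, adjusted p = 0.410). SNHG8 had a log2 fold change of 0.53 (adjusted p = 0.332) and EPB41L4A-AS1 of 0.57 (adjusted p = 0.345). In these 3 the control was the lowest library and the counting interval lay above 1 in both others. EPB41L4A-AS1 shares 48.0% of its words with EPB41L4A, which it overlaps on the opposite strand, so its counts are uncertain if strand was not used. SNHG19 had 96, 137 and 124 counts and LINC02001 had 131, 142 and 173, with log2 fold changes of 0.40 and 0.22. The interval of 1 library or both included 1 in these cases. The median log2 fold change of all 6 hosts was 0.36. Over 20 other tested genes with a snoRNA host name and another biotype or fewer counts, 10 were above 0 and the median was 0.02. With edgeR 1 of these, SNHG7, passed (log2 fold change 0.56, adjusted p = 0.0207), against 0.353% of all tested genes. SNHG7 had 904, 1296 and 1452 counts. Among 8 proteins of the snoRNA particles, 7 were above 0, with a median of 0.16 and none past the threshold.

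**Figure D4:**
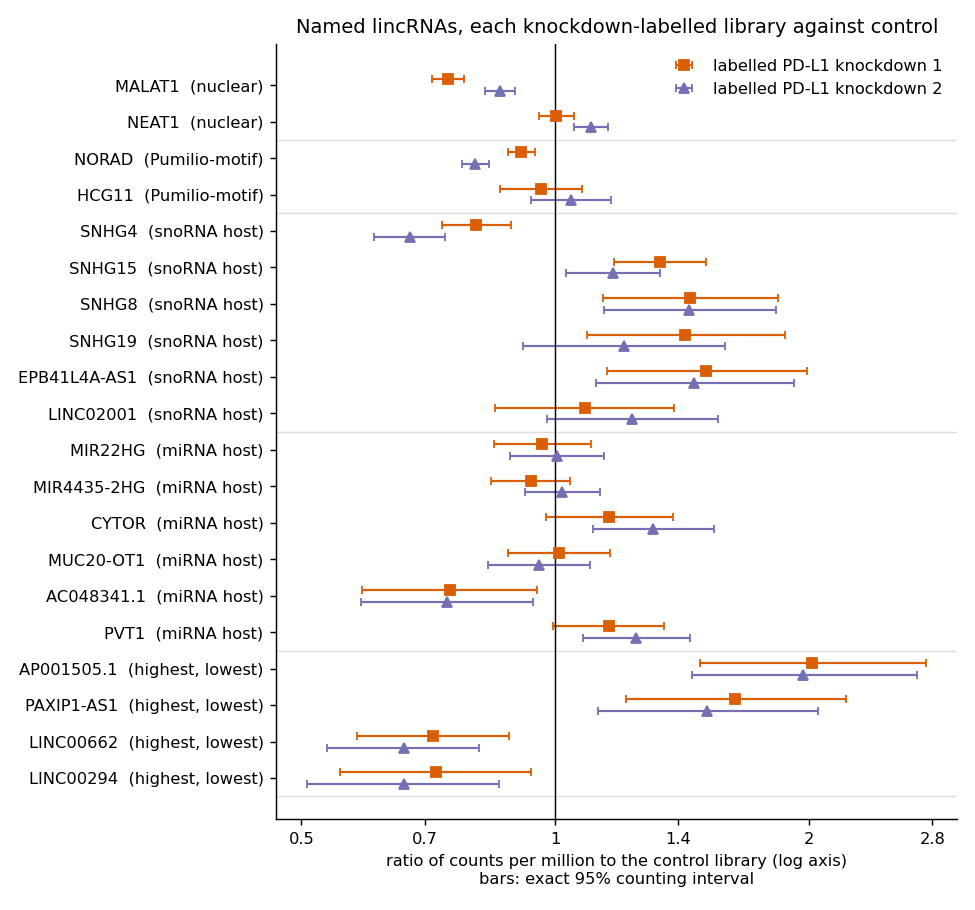
Ratio of CPM to the control library (log axis) for 20 named members, with orange squares for the library labelled PD-L1 knockdown 1, purple triangles for knockdown 2 and bars for exact 95% counting intervals. SNHG4, MALAT1 and NORAD lie left of 1 in both libraries, while SNHG15, SNHG8, EPB41L4A-AS1 and AP001505.1 lie right of it in both.

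A further 7 members hold a miRNA gene on their own strand. They are NEAT1 (MIR612), MIR22HG (MIR22), MIR4435-2HG (MIR4435-2), CYTOR (MIR4435-1), MUC20-OT1 (MIR570), AC048341.1 (MIRLET7I) and PVT1, which holds 4. A miRNA is cut from its host by DROSHA and then DICER1, and its seed, bases 2 to 8, pairs with target messenger RNAs. The mature miRNAs themselves were not measured by these libraries. A mature sequence is shown for 5 of these hosts, not for NEAT1 and PVT1 (RefSeq, GRCh38.p14), with the seed in capitals.
let-7i-5p, in AC048341.1, chr12:62603691-62603712, plus strand: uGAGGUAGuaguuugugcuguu
miR-22-3p, in MIR22HG, chr17:1713914-1713935, minus strand: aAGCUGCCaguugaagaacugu
miR-570-3p, in MUC20-OT1, chr3:195699460-195699481, plus strand: cGAAAACAgcaauuaccuuugc
miR-4435, in MIR4435-2HG, chr2:111321061-111321082, minus strand: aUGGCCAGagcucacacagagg
miR-4435, in CYTOR, chr2:87629764-87629785, plus strand: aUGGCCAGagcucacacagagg
The first carries the seed of the let-7 family, which restrains growth genes. The last 2 are the same mature sequence from separate genes on chromosome 2, and the remaining seeds differ from one another.

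The miRNA hosts differed in direction. For AC048341.1, the let-7i host, the counts were 168 in the control and 126 and 134 in the libraries labelled knockdown 1 and 2. Both ratios lay below 1, at 0.750 (0.590 to 0.9502) and 0.744 (0.589 to 0.940), and the log2 fold change was -0.42 with an adjusted p of 0.468. MIR22HG had 463, 447 and 498 counts and MUC20-OT1 had 406, 410 and 416. All 3 libraries were close together for these hosts, whose log2 fold changes were both -0.02. MIR4435-2HG and CYTOR arose by duplication and share 25.2% and 18.7% of their words with each other. MIR4435-2HG had 712, 666 and 778 counts (-0.03) and CYTOR had 250, 290 and 350 (0.31, adjusted p = 0.531), so only for CYTOR was the control the lowest library. Their mean levels also differed, at 3.44 to 3.76 FPKM for MIR4435-2HG and 0.952 to 1.25 for CYTOR. PVT1, a neighbour of MYC that is often gained with it in cancer, had 324, 375 and 433 counts (0.27, adjusted p = 0.563). None of 6 miRNA processing proteins passed.

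A list of 15 noncoding RNAs known for roles in growth and cancer, of which 11 were found by name and 8 annotated as lincRNA, held 4 members. Besides PVT1 and CYTOR these were CRNDE, named for its level in colorectal tumours, and LINC00467. CRNDE had 142, 129 and 98 counts (log2 fold change -0.36, adjusted p = 0.573) and LINC00467 had 262, 237 and 217 (-0.25, adjusted p = 0.643). In both the control was highest and the library labelled knockdown 2 lowest, and both values rested on that library: without it the log2 fold changes were -0.13 and -0.14. A list of 12 noncoding RNAs known from prostate cancer held no member. Of its 8 genes annotated as lincRNA, PCGEM1, SCHLAP1, PCAT14 and PCAT18 were at 0 counts in every library, which allows up to 0.204 CPM in the control, and the others stayed under the limit of 300 counts. The other 4 are annotated as antisense, and of these PCAT7 had 342, 294 and 291 counts (log2 fold change -0.27, adjusted p = 0.575). Of the 12 genes, 4 had the 10 counts needed for the test. LINP1, which assists DNA end joining, had 455, 498 and 516 counts (log2 fold change 0.11), while LINC00707, which lies 39017 bases away on the same strand, had 2670, 2358 and 2333 (-0.23, adjusted p = 0.424).

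The members differed widely in structure. They lie on 21 chromosomes, with 10 on chromosome 10, 8 on chromosome 7 and 7 on chromosome 17. The number of exons in the transcript with most ran from 1 to 14 with a median of 3, and 23 members had a single exon. Listed length ran from 342 to 22767 bases (median 3337) and GC content from 33.6% to 62.4% (median 45.2%, beside 48.5% over all tested genes). By symbol, 26 carry a LINC number and 31 only the name of a genomic clone. Shared sequence was common: in 20 members more than 20% of the 31-base words occurred in another gene, and in 5 more than 50%. The extreme was CU633906.1 on chromosome 21, with 99.0%, nearly all of it in CU633967.1. It had 102, 112 and 140 counts. NORAD, AC245041.2, AC005332.6 and LINC01410 were the others, with 50.8% to 73.8%, and the words of AC245041.2 lay mostly in ANXA8, an annexin gene (60.9%). LINC01410 had 154, 121 and 114 counts and AC005332.6 had 240, 275 and 267, with log2 fold changes of -0.43 and 0.13 that did not pass. Despite the biotype, 19 members overlapped a coding gene, 5 of them on the same strand and 17 on the opposite one, so reads of these cannot be assigned with certainty.

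Many of the members start back to back with a coding gene. In 17 of them the start lay within 1000 bases of a coding gene's start on the other strand, an arrangement in which 1 promoter region often serves both. The member's mean FPKM was below that of its neighbour in 13 of 17 pairs, at a median of 48.9% of it. EIF3J-DT stood at 5.97% of EIF3J, a translation initiation factor gene 134 bases away,. AP002360.1 was the opposite, at 254% of EMSY. SNHG19, at 67.2% of TRAF7, combined a divergent start with a snoRNA.

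The coding partners, too, stayed under the threshold. With edgeR 0 of the 17 passed at an adjusted p under 0.05 and 4 had an unadjusted p under 0.05, the latter against 15.7% of genes with at least 300 counts, and with DESeq2 the counts were 0 and 0. Member and neighbour had the same sign in 10 of 17 pairs. PAXIP1-AS1 had a log2 fold change of 0.66 and PAXIP1 of -0.16, with 962, 917 and 863 counts. LINC01547 had 0.04 where FAM207A, which starts 97 bases away, had 0.41 (404, 441 and 670 counts, adjusted p = 0.292), a value that rests on the library labelled knockdown 2. Over all nearest coding neighbours, of which 78 were tested, edgeR called 0 at the adjusted p and 12 at an unadjusted p under 0.05, beside the same 15.7%, and DESeq2 0 and 1.

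**Figure D5:**
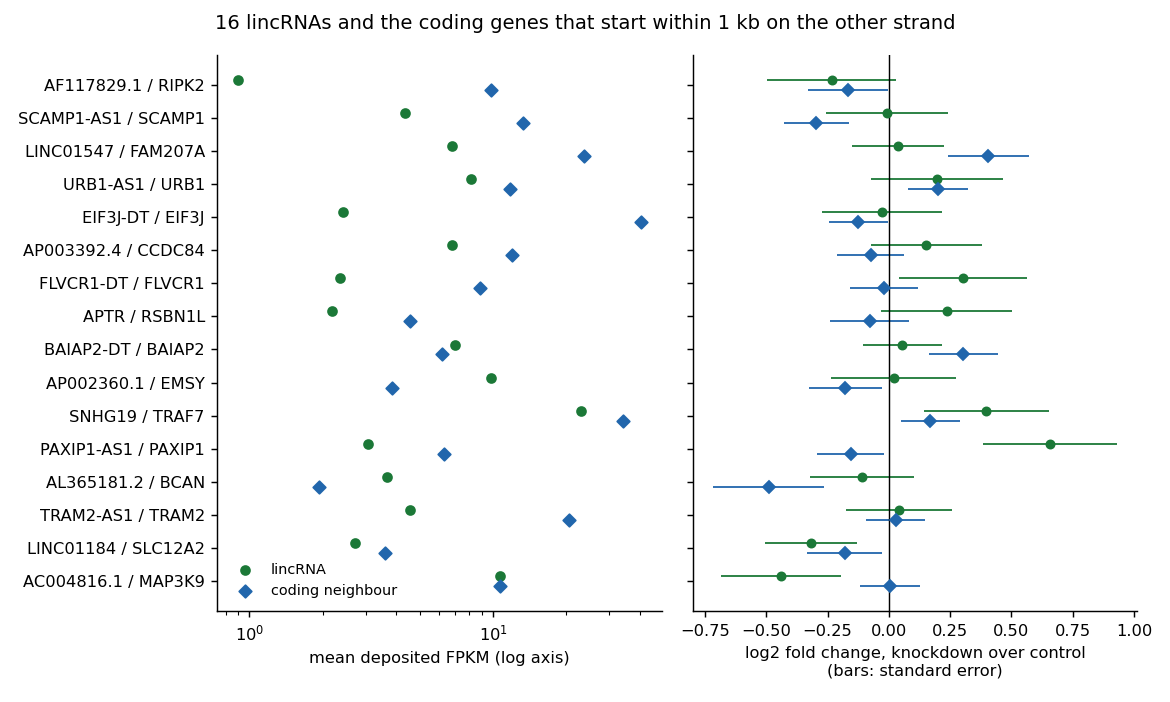
Mean deposited FPKM (left, log axis) and log2 fold change with its standard error (right) of 16 of the 17 members (green circles) and the coding genes that start within 1 kb on the other strand (blue diamonds), ordered by distance. The coding gene is the more abundant in 12 of the pairs drawn, and the fold changes share their sign in 10.

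Finally, proteins that bind, process or degrade such RNAs were examined as a listed group of 50 genes. These include the snoRNA particle, the Pumilio proteins, the nuclear exosome with its adaptors and the nonsense-mediated decay factors. All 50 were tested, 28 were above 0 and the median log2 fold change was 0.05. With edgeR 0 passed at the adjusted p, against 0.353% of all tested genes, and 8 had an unadjusted p under 0.05, 5 of them higher, beside 15.7% of genes with at least 300 counts. DESeq2 called 0 and 3 by the same rules. The log2 fold changes ran from -0.39 to 0.43.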

How the data were processed

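RNA-seq was analysed from 3 libraries of DU145 cells, grouped by their labels. The authors deposited, per library, unnormalized counts of reads on 58735 genes and FPKM values. The submitters' processing notes name Bowtie2 2.0.6, TopHat2 2.0.9, Cufflinks 2.1.1 and Cuffdiff 2.1.1. The counting tool, strand setting and treatment of reads matching several genes are not given in the sources used here. Gene positions of 58724 genes, all 88 members included, equalled those of GENCODE release 29 (GRCh38).

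Genes with at least 10 counts in all (19849) were tested with edgeR 4.0.16 (R 4.3.3): TMM normalization, glmQLFit and glmQLFTest, knockdown-labelled libraries against control, Benjamini-Hochberg adjustment. The control has 1 library, so the fit has 1 residual degree of freedom. The spread behind its p-values and standard errors comes from the knockdown-labelled libraries only. It was pooled over genes, with infinite prior degrees of freedom, so a gene's own spread did not enter. Whether those libraries carry different hairpins is not given. DESeq2 1.42.0 was an alternative. The fit was tested on data simulated with a single spread common to all genes and libraries, which cannot test the lack of a control replicate. The rule of an unadjusted p under 0.05 with over 2-fold change is the one printed beside the study's volcano plot. Ratios carry exact 95% intervals. They and the limit a count of 0 allows (3 counts) cover counting error only, since PCR copies were not marked by molecular identifiers. At the depth of these libraries 3 counts are 0.190 to 0.204 CPM. Shared sequence was measured as 31-base words on either strand over all transcripts.

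The members and all lists were chosen with earlier results of these data known. Named are members called, the 10 of highest mean FPKM, the 5 highest and 5 lowest fold changes, members on role lists or holding a snoRNA or miRNA gene, and genes at the limit of 300 counts. Others were chosen after their values were seen. The values of some genes are not reported here.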

Additional observations from a re-analysis of the deposited data

How the results depend on the processing

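Under every other setting tried, which were DESeq2 size factors, library totals alone, the DESeq2 Wald test, genes with at least 1 count, and removal of the trends with gene length and GC content, 0 members were called by either rule. The lowest adjusted p of any member, that of AP001505.1 in the main fit, ranged from 0.0644 with DESeq2 size factors to 1.00 with the DESeq2 Wald test and was 0.685 with the trends removed. The log2 fold change of AP001505.1 was 0.992 to 0.999 under these settings, just under the 2-fold limit, except with the trends removed (0.823). With 1 knockdown-labelled library left out it was 0.976 to 1.016. Over all tested genes 70 passed the adjusted p with edgeR, 6 with DESeq2 and 6 with the trends removed. The median log2 fold change of the members was -0.0278, moved to -0.0885 with the trends removed, and ranged from -0.0596 to -0.0302 when 1 knockdown-labelled library was left out. The cause was not tested. Of 231 values for 33 named members, 223 kept their sign. With the trends removed, 18 of the 33 moved by over 1.5 times without changing sign, 14 of them toward 0. Among these LINC00662 came to -0.309, AC048341.1 to -0.245, LINC00707 to -0.105, AC102953.2 to 0.281, SNHG8 to 0.348 and SNHG19 to 0.225, while NEAT1 came to 0.239 and CYTOR to 0.506. Leaving out 1 knockdown-labelled library moved 13 of the 33 by as much, among them AC004816.1 (-0.779 to -0.173), CRNDE (-0.633 to -0.132), NEAT1 (0.011 to 0.141) and LINC02001 (0.123 without the library labelled knockdown 2). The remaining settings moved none by as much. The values that changed sign were of members near 0. With the trends removed MIR4435-2HG came to 0.073, MUC20-OT1 to 0.041 and SFTA1P to -0.079. With 1 knockdown-labelled library left out, CYP4F26P ranged from -0.158 to 0.016, LINC00997 from -0.241 to 0.309, MIR22HG from -0.044 to 0.007, MIR4435-2HG from -0.09 to 0.029 and MUC20-OT1 from -0.063 to 0.02. Leaving out a library leaves 1 against 1, so no calls could be made. No paired analysis was possible because the control has 1 library.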
